A study of Mus musculus with 6 samples.

Results

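The apolipoprotein L genes of the mouse form a family on chromosome 15 that includes pairs of near copies. Their transcripts were read here in renal tubular epithelial cells. Members were the rows of the deposited expression table whose gene symbol begins with Apol and a digit, which gave 12 genes of the 22442 in the table. Of these 12, 10 had a value above 0 in at least 1 library and are described with values, so the values themselves chose which members are reported. The members just inside this limit were Apol7c and Apol11b, with 1 fragment each over all 6 libraries, and those just outside it were Apol10a and Apol11a, with 0 fragments in every library.

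The data were 6 poly(A) RNA-seq libraries of mTECs, mouse renal tubular epithelial cells, all of which received lipopolysaccharide (LPS), a component of the bacterial outer membrane, at 20 μg/ml for 24 h. Before LPS, the cells of the 3 libraries labelled LPS were transfected with a negative control and those of the 3 libraries labelled LPSKD with an RNA against Stat3. Every library was therefore both transfected and LPS-treated, and no untreated or untransfected cells were part of the series. Per the labels, the cells were sorted magnetically and the RNA was an siRNA, whereas the methods of the study describe an immortalised line and its reagent list an shRNA. Replicate numbers are given without a statement that they stand for separate cultures, so the p-values measure the spread between these libraries.

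The deposited unit was FPKM, which scales the fragments of a gene to its length and to the depth of the library, and fragments recovered from it gave depths between 24084827 and 25422171 per library. Stat3, the targeted transcript, did not separate the groups, at −0.01 on the log2 scale (LPSKD minus LPS, limma adjusted p = 0.944), so the groups keep their labels. The study reports knockdown of Stat3 in mTECs by real-time PCR and western blot, without stating whether these libraries came from those cells. All 9 markers of tubular epithelium were above 1 FPKM, but Slc34a1 of the proximal segment and Umod, Calb1 and Aqp2 of the distal segments and collecting duct were at 0. Of the other proximal markers, Aqp1 averaged 4.33 FPKM in LPS and 8.34 in LPSKD, Cubn 0.951 and 0.938, and Lrp2 0.0057 and 0.0038. The proximal markers summed to 4.80 to 6.24 FPKM in LPS and 7.68 to 10.2 in LPSKD, and the distal ones to at most 0.035 and 0.024. The summed leukocyte markers ranged from 58.3 to 64.8 FPKM in LPS and from 61.4 to 74.8 in LPSKD, with Csf1r, Lyz2 and Cd68 the most abundant and Ptprc under 1 FPKM in both means. Endothelial markers summed to 2.31 to 4.29 FPKM in LPS and 2.71 to 4.46 in LPSKD, and fibroblast markers to 23.4 to 30.1 and 15.6 to 29.1. The part of these cell types in the results was not tested. Replicate 2 of LPS stood apart in genes typical of hepatocytes, a list of 8 made after their values were seen. They summed to 652 FPKM there, against 262 to 334 in the other 5 libraries, with Alb alone at 339 FPKM against 149 to 182. In such bulk libraries, fewer cells that express a gene and less RNA per cell cannot be told apart.

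Apolipoprotein L proteins carry amphipathic helices that bind lipids and membranes. The best known human member circulates on lipoprotein particles and lyses trypanosomes, while most other members lack a signal peptide and stay inside the cell. In mice the family has expanded by local duplication. Apol9a and Apol9b are known as genes induced by interferon, with a described antiviral activity and binding of phosphatidylethanolamine. LPS can start such a response through Toll-like receptor 4 and type I interferon.

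All 12 genes lie on chromosome 15 of GRCm38. Apol6 is the first, at chr15:77044729-77057106 on the plus strand. The others follow between Rbfox2 and Myh9, from the start of Apol7a at 77388219 to the end of Apol8 at 77757003. Apol9a lies at chr15:77403789-77411135 on the minus strand and Apol9b at chr15:77729039-77736382 on the plus strand, so that these near copies are read in opposite directions, with 7 other members between them.

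The coding sequences of Apol9a and Apol9b are each 930 bases long and are 98.5% identical, with 14 differing positions and a longest identical stretch of 446 bases. The stretch below is shown because it holds 5 of these 14 positions, by which a fragment can be given to one gene or the other. It covers coding bases 524 to 553 of both genes in the GENCODE M21 annotation of GRCm38, 5′ to 3′ along the transcript. Capitals mark the positions that differ.
Apol9a, chr15:77404613-77404642, minus strand: gcacaagtgtGgAtaggattgCcaGcaagG
Apol9b, chr15:77735529-77735558, plus strand: gcacaagtgtAgCtaggattgTcaAcaagA

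A short motif around the start site was shared by most members. RefSeq promoter windows on GRCm38.p6, from 250 bases before to 50 bases after a start, were found for 11 of the 12 genes, all but Apol6. They were searched on both strands for the core of the interferon-stimulated response element, which is GAAA, any 2 bases and GAAA again, and for the core of the gamma-activated site bound by STAT factors, which is TTC, any 3 bases and GAA. The STAT core reads the same on both strands, and neither search excluded matches that overlap. The interferon core occurred in 8 of the 11 genes, while it occurred in 3.44% of 32851 windows of the same length over all genes. These 8 are not separate cases, since many of their windows are copies of one another. Identity, gaps included, was 99.3% between Apol11a and Apol11b and 88.4% between Apol10a and Apol11a. It was 86.3% between Apol9a and Apol9b, where 278 positions were identical, 44 were gaps and 0 were mismatched. Between Apol7c and Apol7e it was 72.7%, with 25 mismatches and 66 gaps. The STAT core occurred in 3 of the 11, Apol10a, Apol11a and Apol11b, and in 8.30% of all windows. The 8 stretches with the interferon core are shown because they hold the feature that most members share. They are written 5′ to 3′ along the gene, so that the core reads TTTC, 2 bases and TTTC, and capitals mark its letters. In Apol9a, Apol9b, Apol7c and Apol7e a pair of cores overlaps by 4 letters.
Apol9a, chr15:77411117-77411146, minus strand: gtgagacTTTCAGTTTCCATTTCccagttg
Apol9b, chr15:77729028-77729057, plus strand: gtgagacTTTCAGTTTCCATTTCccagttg
Apol7c, chr15:77533348-77533377, minus strand: atggggcTTTCTCTTTCCTTTTCtgctttg
Apol7e, chr15:77698846-77698875, plus strand: ttggggcTTTCTCTTTCGTTTTCtgctttg
Apol10a, chr15:77476986-77477015, plus strand: gaaatttttcTTTCACTTTCatgcattggg
Apol11a, chr15:77508209-77508238, plus strand: gaatttttacTTTCACTTTCatgcactggg
Apol11b, chr15:77643317-77643346, minus strand: gaatttttacTTTCACTTTCatgcactggg
Apol10b, chr15:77596110-77596139, minus strand: gaaattttacTTTCATTTTCgtgcactgag

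The stretch is the same in Apol9a and Apol9b over all 30 bases. Apol9a had no STAT core in its window, and neither had Apol9b, and in Apol7a, Apol7b and Apol8 neither core was present. A match is a description of letters and not of a bound site. Apol10a and Apol11a held the interferon core and were nevertheless at 0 in every library.

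Apol9a (ENSMUSG00000057346) and Apol9b (ENSMUSG00000068246) were the most abundant members in LPS and were about 10-fold lower in LPSKD, while no other member passed the test. The levels of Apol9b were 5.83, 6.86 and 7.47 FPKM in LPS and 0.645, 0.669 and 0.803 FPKM in LPSKD, from 135, 159 and 170 fragments and from 15, 15 and 19. Each LPS library was far above each LPSKD library, and the groups did not overlap. The means were 6.72 ± 0.833 and 0.706 ± 0.0850 FPKM (SD, n = 3 each), a ratio of 9.52. The difference on the log2(FPKM + 0.1) scale was −3.08 (standard error 0.18, 95% confidence interval from −3.49 to −2.67, adjusted p = 5.59e-05 from limma).

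For Apol9a the levels were 4.45, 7.39 and 5.81 FPKM in LPS and 0.990, 0.268 and 0.508 FPKM in LPSKD, from 103, 171 and 132 fragments and from 23, 6 and 12. Again the groups did not overlap, but the spread within each was wider than for Apol9b, with the highest value in replicate 2 of LPS and the lowest in replicate 2 of LPSKD. The means were 5.88 ± 1.47 and 0.589 ± 0.368 FPKM (SD, n = 3 each), a ratio of 9.99. The log2 difference was −3.23 (standard error 0.38, 95% confidence interval from −4.11 to −2.35, adjusted p = 0.00338 from limma). Replicate 2 of LPS, which was highest in hepatocyte genes, was left out in turn, and the log2 difference of Apol9a was then −3.05 (adjusted p = 0.0173 from limma) and that of Apol9b −3.06 (adjusted p = 7.92e-04 from limma).

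Of the 10 members above 0, 3 reached the mean of 0.5 FPKM needed for the test, and 2 of them, Apol9a and Apol9b, were called lower at an adjusted p under 0.05 (limma), where 1.66% of the 11723 genes tested were called lower, 1.57% higher and 3.23% in either direction. A member could reach that mean through its high group alone, so the number tested is not a measure of the family. No member was called higher, none was higher at an unadjusted p under 0.05, and voom, limma's variant for counts run on the recovered fragments, also gave 0. The fall of Apol9a ranked as the 4th and that of Apol9b as the 6th among the 11723 genes. Non-overlapping groups with LPSKD lower were found in these 2 members, and in 13.2% of the genes tested.

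**Figure D1:**
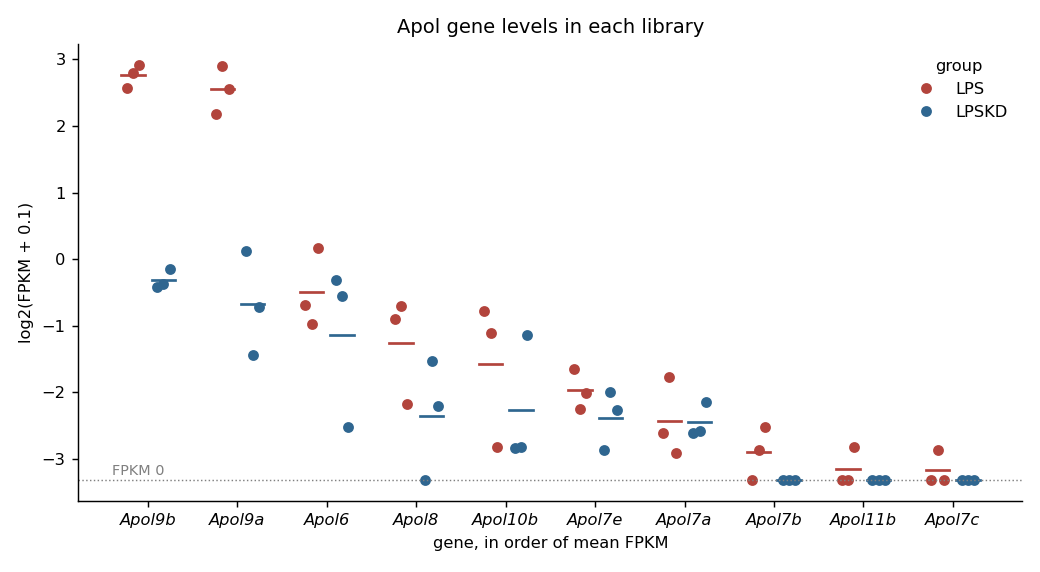
Level of each Apol gene above 0 in each library on the log2(FPKM + 0.1) scale, with 1 point per library, 3 libraries per group, and a bar at the group mean. For Apol9b and Apol9a the LPS points lie between 4.45 and 7.47 FPKM and the LPSKD points between 0.268 and 0.990, while the groups overlap for the other genes.

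Because their sequences are so close, fragments of Apol9a and Apol9b could have been divided between them in counting. Of the 900 stretches of 31 bases in the coding sequence of each, 636 (70.7%) occur in the other, and no other annotated gene holds any of them. At 75 bases the shared part was 439 of 856 (51.3%). How such fragments were assigned by the authors is not stated, so the 2 genes were also summed. The sum does not depend on how fragments counted once were split between them. Fragments that were dropped, or counted for both genes, would still affect it. The sum was 10.3, 14.2 and 13.3 FPKM in LPS and 1.64, 0.937 and 1.31 FPKM in LPSKD. Every LPS value was above every LPSKD value, and the means were 12.6 ± 2.07 and 1.29 ± 0.350 FPKM (SD, n = 3 each). The log2 difference of the sum was −3.21 (standard error 0.21, 95% confidence interval from −3.68 to −2.73, adjusted p = 1.27e-04 from limma).

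The balance between the pair varied more than it differed between groups. Apol9a made up 43.3%, 51.8% and 43.7% of the summed FPKM in LPS and 60.6%, 28.6% and 38.7% in LPSKD. The LPSKD shares lay on both sides of the LPS shares. The means were 46.3 ± 4.81% and 42.6 ± 16.3% (SD, n = 3 each), and the difference of −3.67 percentage points was within this spread (two-sided exact permutation test over 20 assignments, p = 0.8, where 0.1 is the smallest p possible). Without replicate 2 of LPSKD, the library with 6 fragments of Apol9a, the difference was 3.35 percentage points.

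**Figure D2:**
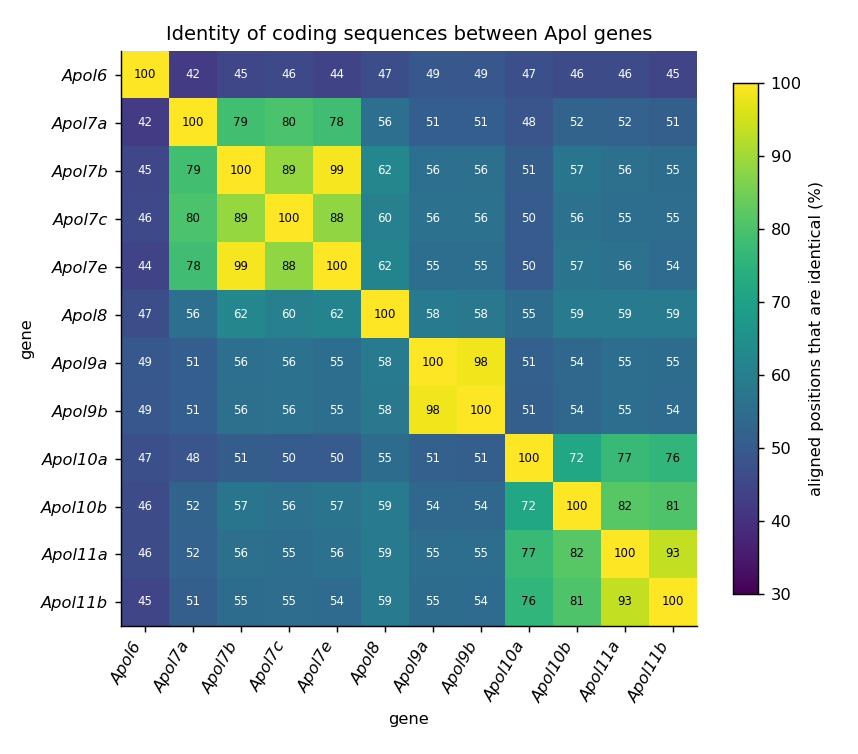
Identity between the coding sequences of the 12 Apol genes, as the percent of aligned positions, gaps included, with the same base. The highest values are between Apol7b and Apol7e (98.9%), Apol9a and Apol9b (98.5%) and Apol11a and Apol11b (93.5%), and the lowest is between Apol6 and Apol7a (42.2%).

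Apol6 (ENSMUSG00000033576), whose human counterpart has been described as pro-apoptotic, was the third member tested. Its levels were 0.521, 0.410 and 1.02 FPKM in LPS and 0.705, 0.577 and 0.0729 FPKM in LPSKD, from 14, 11 and 27 fragments and from 19, 15 and 2. The groups overlapped, with the highest value in replicate 3 of LPS and the lowest in replicate 3 of LPSKD. The log2 difference was −0.64 (standard error 0.64, 95% confidence interval from −2.11 to 0.84, adjusted p = 0.672 from limma), and it turned to 0.06 without replicate 3 of LPSKD. A fall of 4-fold therefore stayed within the interval of Apol6. At 31 bases, 5.12% of its stretches occur in another gene, most often in Mb, whose annotated gene overlaps that of Apol6, so its value is less certain there.

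The difference between Apol9b and Apol6 can be read within each library. Their log2 ratio, each with 0.1 FPKM added, was 3.25, 3.77 and 2.75 in LPS and −0.11, 0.18 and 2.38 in LPSKD. It averaged 3.26 ± 0.510 in LPS and 0.82 ± 1.36 in LPSKD, and that of Apol9a to Apol6 averaged 3.05 ± 0.757 and 0.46 ± 1.35 (SD, n = 3 each). In LPSKD both ratios were highest in replicate 3, which held 2 fragments of Apol6. Both ratios gave p = 0.1 (two-sided exact permutation test), the smallest that 3 libraries against 3 allow, so this design could not take either below 0.05.

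Apol8, Apol10b, Apol7e and Apol7a were above 0 but under the mean needed for the main test, and were read from a fit of all 16837 genes above 0, in which 1.58% were called. Apol8 had 11, 13 and 3 fragments in LPS and 0, 6 and 3 in LPSKD, or 0.435, 0.514 and 0.121 FPKM against 0, 0.245 and 0.116. The groups overlapped through replicate 3 of LPS, and the log2 difference was −1.09 (standard error 0.56, 95% confidence interval from −2.41 to 0.22, adjusted p = 0.455 from limma). Apol10b had 12, 9 and 1 fragments in LPS and 1, 1 and 9 in LPSKD, or 0.481, 0.361 and 0.0408 FPKM against 0.0400, 0.0414 and 0.353. Each group thus held high and low libraries, and the log2 difference of Apol10b was −0.69 (standard error 0.66, adjusted p = 0.716 from limma). When 1 library was left out, it moved between −1.32 and −0.29, and that of Apol8 between −1.55 and −0.61, with neither past the threshold.

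Apol7e had 6, 3 and 4 fragments in LPS and 1, 4 and 3 in LPSKD, or 0.218, 0.109 and 0.148 FPKM against 0.0361, 0.1499 and 0.107, and a log2 difference of −0.41 (standard error 0.31, adjusted p = 0.643 from limma). Apol7a had 2, 6 and 1 fragments in LPS and 2, 2 and 4 in LPSKD, or 0.0641, 0.192 and 0.0326 FPKM against 0.0639, 0.0662 and 0.125. Its log2 difference was −0.02 (standard error 0.33, adjusted p = 0.997 from limma), with a direction that turned under other settings. In both genes the groups overlapped, and at these counts differences of this size were not detectable.

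Apol7b had 0, 1 and 2 fragments in LPS, Apol7c 0, 1 and 0, and Apol11b 0, 0 and 1, and all 3 had 0 in each LPSKD library. With no more than 3 fragments in any library, neither group rose above the floor set here, so no fold change is given for these genes. The limit that a count of 0 allows is 3 fragments, which correspond to at most 0.131 FPKM for Apol10a and 0.124 FPKM for Apol11a, the genes at 0 throughout.

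**Figure D3:**
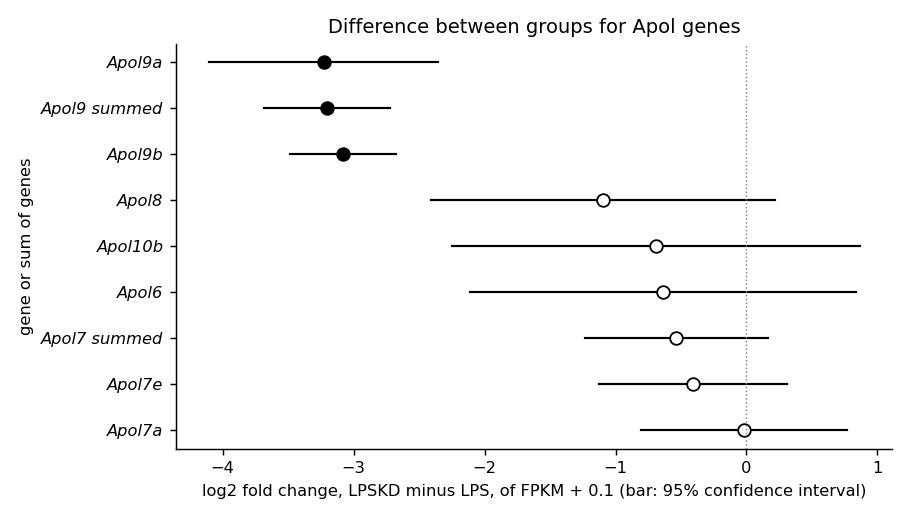
Log2 fold change of FPKM + 0.1, LPSKD minus LPS, with its 95% confidence interval from limma, for the Apol genes above the floor of 3 fragments and for the sums of Apol9 and of Apol7 genes, with 3 libraries per group. Filled points, at −3.23, −3.21 and −3.08, have an adjusted p under 0.05, and the intervals of the open points all include 0.

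The Apol7 genes share sequence as the Apol9 pair does. Apol7b and Apol7e are 98.9% identical in coding sequence and Apol7b and Apol7c 88.8%. Of the stretches of 31 bases, 78.6% of those of Apol7b, 80.4% of those of Apol7e and 53.4% of those of Apol7c occur in another gene, against 29.0% for Apol7a. The 4 Apol7 genes summed to 8, 11 and 7 fragments in LPS and 3, 6 and 7 in LPSKD. The groups touched at 7 fragments but did not overlap in summed FPKM, with 0.254 the lowest in LPS and 0.232 the highest in LPSKD. Among the genes tested, 13.2% likewise did not overlap with LPSKD lower. The log2 difference of the summed FPKM was −0.54 (standard error 0.30, adjusted p = 0.493 from limma). Single values of these genes are therefore uncertain, as are those of Apol11b, which shares 36.1% of its stretches, mostly with Apol11a. Apol8 and Apol10b share under 1% and can be read as single genes.

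Over the whole family, the summed FPKM was 11.99, 15.9 and 14.8 in LPS and 2.48, 2.02 and 2.08 in LPSKD. Apol9a and Apol9b together made up 85.7%, 89.6% and 90.0% of it in LPS and 65.9%, 46.5% and 62.9% in LPSKD. The other 8 expressed members together summed to 1.72, 1.66 and 1.48 FPKM in LPS and 0.845, 1.08 and 0.774 FPKM in LPSKD, from few fragments each. This sum did not overlap between the groups, with means of 1.62 ± 0.124 and 0.900 ± 0.160 FPKM (SD, n = 3 each). Its p was 0.1 (two-sided exact permutation test), the smallest possible, and 13.2% of the genes tested also did not overlap with LPSKD lower. None of these members was separated on its own. In LPS the order of the means was Apol9b, Apol9a, Apol6, Apol8, Apol10b, Apol7e, Apol7a, and only the step from Apol9a to Apol6 separated neighbours whose libraries did not overlap. In LPSKD, the libraries of Apol9b, Apol9a and Apol6 overlapped one another. By rank among the genes above 0 in the same group, Apol9b went from the 44.9th percentile in LPS to the 29.3rd in LPSKD, and Apol9a from the 43.4th to the 28.2nd.

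To set the pair beside its pathway, a list of 55 interferon genes was read from the same fit. It was drawn up with earlier results of these libraries known, so its direction is not independent evidence. Of 52 tested, 30 (57.7%) were called lower in LPSKD and 0 higher (limma), where 1.66% and 1.57% of all genes tested were. The median log2 fold change was −1.13 on the list and −0.01 over all genes tested. At an unadjusted p under 0.05 there were 37 lower and 2 higher on the list, and 1044 lower and 1014 higher among all 11723 genes tested. Voom called 33 lower and 1 higher, Ifit2, on the list, and 315 lower and 283 higher over all genes. Ifi44l was at 0 in every library, and Mx1 and Mx2 were under the mean needed for the test.

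By role, 3 of 7 receptor and signal genes, 1 of 3 transcription factors and 2 of 4 genes of the ISG15 system were called lower. So were 9 of 17 antiviral effectors, 2 of 3 sensors and 13 of 18 other induced genes, against 1.66% of all genes tested. Irf9, a DNA-binding factor of the interferon response, fell from 21.2 ± 0.422 to 5.48 ± 0.883 FPKM, a log2 difference of −1.94 (adjusted p = 6.51e-05 from limma).

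Stat2, which binds Irf9, fell less, from 14.8 ± 0.997 to 10.3 ± 0.651 FPKM, a log2 difference of −0.52 (adjusted p = 0.0131 from limma), and was called in 3 of the 6 fits with 1 library left out. Irf7, which amplifies interferon production, fell from 9.59 ± 0.921 to 1.64 ± 0.694 FPKM, a log2 difference of −2.55 (adjusted p = 0.00157 from limma). Usp18, which removes ISG15 and dampens the receptor, fell from 19.5 ± 1.66 to 1.29 ± 0.233 FPKM (SD, n = 3 each throughout), a log2 difference of −3.83 (adjusted p = 1.08e-05 from limma). Its fall was larger than those of the Apol9 genes, as were those of Xaf1 at −3.66 and Ifit1 at −3.54, which were named after their values were seen. The list genes on the other side of 0 were Ifit2 and Ifnar2 at 0.25, Jak1 at 0.04 and Ifnar1 at 0.02, none of them past the threshold.

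Genes that share only the name or a role in lipid transport were read in the same way. Of 34 genes on a list of other apolipoproteins and lipoprotein genes, 29 were tested, and 2 (6.90%) were called lower, where 1.66% of all genes tested were, and 0 higher (limma), with a median of −0.04 and a range from −1.01 (Apoa4, adjusted p = 0.139) to 0.52. At an unadjusted p under 0.05 the counts were 3 lower and 3 higher of the 29, where they were 1044 and 1014 of all 11723 genes. Voom called 2 lower and 0 higher, where it called 315 and 283 over all genes. Lrp1, an endocytic receptor for lipoprotein remnants, had 11.4 ± 0.891 FPKM in LPS and 6.64 ± 0.346 in LPSKD (SD, n = 3 each) and fell by 0.77 on the log2 scale (adjusted p = 0.00345 from limma). Apobr, a receptor for apolipoprotein B, had 18.3 ± 1.5 FPKM in LPS and 13.9 ± 0.850 in LPSKD (SD, n = 3 each), with a log2 difference of −0.39 (adjusted p = 0.0434 from limma), a call lost with any of the 6 libraries left out. Several liver-secreted apolipoproteins of the list were highest in replicate 2 of LPS, among them Apoa1 with 59.98 FPKM there and 27.0 to 34.0 FPKM in the other libraries, and Apoa2 with 50.5 against 18.5 to 26.4. Apold1, a gene with an apolipoprotein L domain outside the cluster, averaged 0.310 FPKM in LPS and 0.257 in LPSKD and was under the mean needed for the test.

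**Figure D4:**
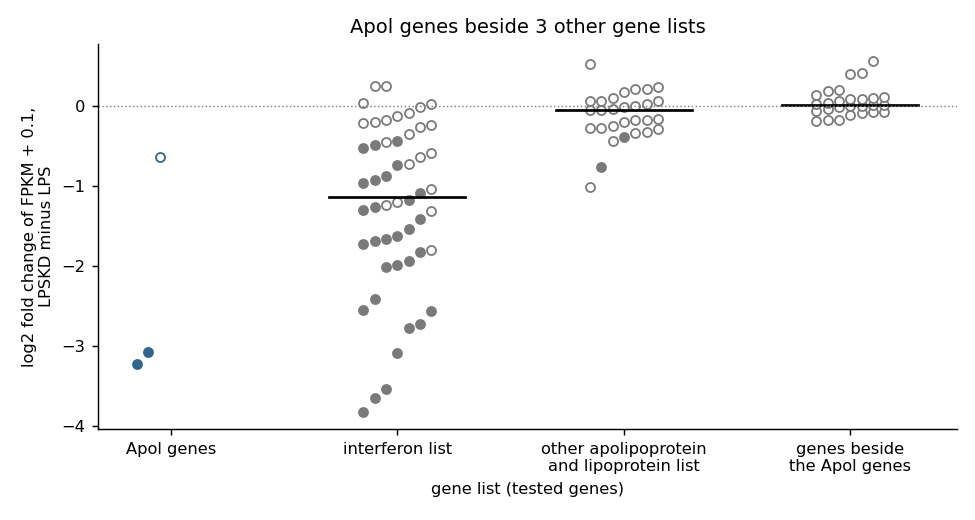
Log2 fold change of FPKM + 0.1, LPSKD minus LPS, for the tested genes of the Apol family and of 3 other lists, with 1 point per gene and, for the 3 lists, a bar at the median. Filled points have an adjusted p under 0.05 (limma), and the medians are −1.13 for interferon genes, −0.04 for other apolipoprotein and lipoprotein genes and 0.02 for genes beside the Apol genes.

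The genes that lie around the Apol genes were picked by position only, as the 35 other protein-coding genes within 500000 bases of any member. Of 27 tested, 0 were called in either direction (limma), where 3.23% of all genes tested were, so few calls could occur among 27 genes. The median of the 27 was 0.02, with a range from −0.19 to 0.56. At an unadjusted p under 0.05, 1 of the 27 was lower and 4 were higher, where 1044 and 1014 of all 11723 genes were. Voom called 1 of the 27, Zfp7, higher, with a log2 difference of 0.20, where it called 283 higher over all genes. Rbfox2, an RNA-binding splicing factor whose gene separates Apol6 from the rest, was at −0.07, and Myh9, a non-muscle myosin heavy chain gene just beyond Apol8, was at 0.09. These 3 genes were chosen after their values were seen. Apol6 and Apol8, the members at the ends of the cluster, had intervals that include 0, as given above.

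**Figure D5:**
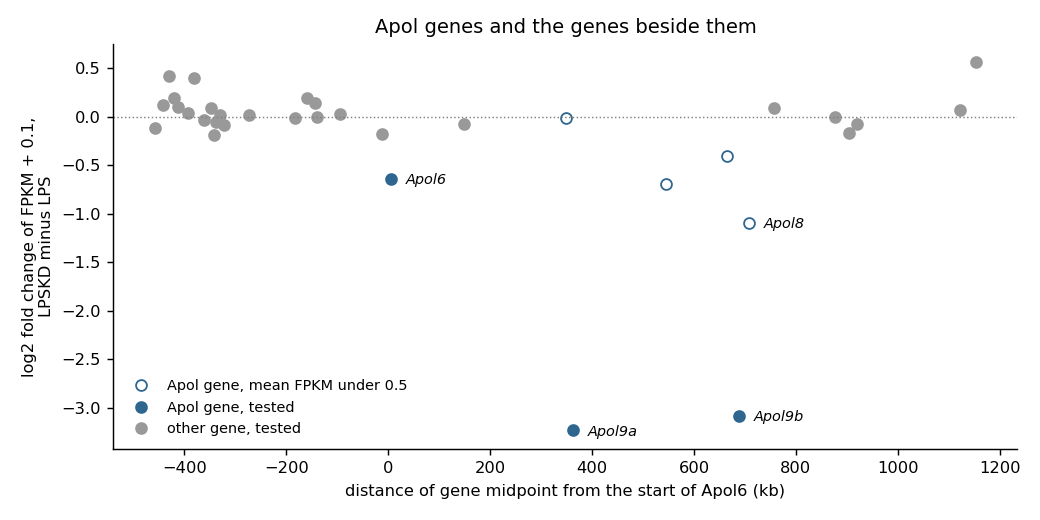
Log2 fold change of FPKM + 0.1, LPSKD minus LPS, against the distance of each gene's midpoint from the start of Apol6 in kb, for Apol genes above the floor of 3 fragments and for the tested genes within 500000 bases of a member. Apol9a at −3.23 and Apol9b at −3.08 stand below the rest, while the other tested genes lie between −0.19 and 0.56 and Apol6 at −0.64.

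Among the tested genes outside the family whose pattern was most like that of Apol9b over the 6 libraries, by Pearson's r on log2(FPKM + 0.1), were Krt18 (r = 0.999), Usp18 (0.998), S100a7a (0.997) and Ifih1 (0.997). With the group means removed, r was 0.999 for Krt18, 0.701 for Usp18, 0.509 for S100a7a and 0.795 for Ifih1. For Apol9a they were Cuedc2 (r = 0.998), Myef2 (0.998), Gm4070 (0.998), Herpud1 (0.995) and Cfap69 (0.995), and with the group means removed r was between 0.938 and 0.992. Likeness of pattern says nothing of size, since the log2 difference was −0.15 for Krt18 and −0.16 for Cuedc2. With 6 libraries in 2 groups and 11723 genes to choose from, values near 1 are a description only. The r between Apol9a and Apol9b themselves was 0.954, and 0.101 with the group means removed.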

How the data were processed

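The authors deposited FPKM values for 22442 genes in 6 libraries, from poly(A) RNA read as paired ends. The submitters' processing notes name Bowtie 0.12.2, HISAT2 2.0 and StringTie 1.3.0 and the builds mm8 and GRCh38.p13, without roles, so the build behind the values is not established. Coordinates are from GENCODE M21 (GRCm38) and promoter windows from RefSeq (GRCm38.p6).

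Fragments were recovered as FPKM times gene length times library total. Whole numbers within 0.0001 were found for 16836 of the 16837 genes above 0, of which 16454 needed at most 10 bases beyond their coding length and 382 took a length found by search. Among the members Apol6, Apol7e and Apol9b were whole only with added bases. Groups were tested with limma 3.58.1 in R 4.3.3 (lmFit, eBayes with trend) on log2 values with a pseudocount of 0.1 FPKM. Genes had to average at least 0.5 FPKM, and p-values were adjusted by Benjamini-Hochberg with a threshold of 0.05. The pseudocount shrinks the differences of low genes. Single values were compared with two-sided exact permutation tests. Floors of 3 fragments per library cover counting error only.

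Named were all members above 0, Stat3, Stat2, Irf9, Irf7, Usp18, list genes moving against their list, genes called on the lipoprotein and neighbour lists, and the 5 genes most like Apol9a and Apol9b, except that a gene the rule covers is not reported here. Members and lists were chosen with earlier results of these data known. The alternatives tried were other pseudocounts (1 and 0.01), other filters (a mean of 1 or 0.1 FPKM, or none), quantile normalization, centred medians, eBayes without trend, voom on the recovered fragments, the replicate number as a block, and each library left out. Protein sequences were not used here. Python 3.11.15 and matplotlib 3.10.9 were used.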

Additional observations from a re-analysis of the deposited data

How the results depend on the processing

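The calls of Apol9a, Apol9b and their sum were kept under all 16 alternatives. Leaving out each library in turn gave log2 differences from −3.63 to −2.85 for Apol9a, −3.18 to −3.0002 for Apol9b and −3.38 to −3.01 for the sum, and the other alternatives gave −3.46 to −2.12, −3.23 to −2.17 and −3.30 to −2.57. A pseudocount of 1 gave the smallest falls, since it weighs on low values by construction. Same-numbered libraries did not deviate together over the genes tested (r = −0.016, −0.004 and −0.043). Between differently numbered libraries r ranged from −0.043 to 0.058. A pairing that affects few genes would not show in such an r. A block on the replicate number leaves the differences as they are by construction (−3.23 for Apol9a, −3.08 for Apol9b and −3.21 for the sum), and the adjusted p from limma was 0.0283, 0.00151 and 0.0045. The block gave 108 genes lower and 105 higher over the whole table and 1 on the lipoprotein list. For Apol8 and Apol10b, alternatives other than leaving out a library ranged from −2.19 to −0.27 and from −1.10 to −0.17, widest between pseudocounts. Values near 0 turned sign. Apol6 lay between −1.05 and 0.059 with 1 library left out, the latter without replicate 3 of LPSKD. Apol7a was at 0.085 with a pseudocount of 0.01, 0.029 after quantile normalization, 0.020 with centred medians and 0.064 with voom, and between −0.26 and 0.31 with 1 library left out (0.31 without replicate 2 of LPS, 0.06 without replicate 1 and 0.05 without replicate 2 of LPSKD). The share of Apol9a ranged from −12.6 to 3.35 percentage points with 1 library left out. On the lipoprotein list, 1 gene was lower after quantile normalization, without trend, without a filter and with any library left out. Voom called 1 interferon gene and 1 neighbour higher. Over all genes, the calls were 195 lower and 184 higher, against 84 and 56 without trend and 315 and 283 with voom. With 1 library left out they were 80 to 154 lower and 76 to 203 higher, the fewest lower without replicate 3 of LPS and the fewest higher without replicate 3 of LPSKD. The cause of these moves was not tested. Depth limits the members under 0.5 FPKM, where 1 fragment is 0.0314 to 0.0435 FPKM.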
